A study of Mus musculus with 16 samples.

Results

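The transcripts described here are those of 9 genes of transforming growth factor beta (TGF-beta) signalling in B16-OVA tumors: the ligands Tgfb1, Tgfb2 and Tgfb3, the activin subunit Inhba, the receptors Tgfbr1 and Tgfbr2, the inhibitor Smad7, and the target genes Tgfbi and Thbs1. A gene was included through every probe set whose only gene symbol in the annotation was its own. This gave 23 probe sets for 9 of the 18193 genes that the arrays measured under a single symbol. Of the 23, 18 had a mean signal above the background level of 4.94 log2 units, defined as the 95th percentile of 44 olfactory receptor probe sets, and each gene had at least 1 of these. B16-OVA is a melanoma line of mouse origin that carries ovalbumin as a model antigen. Cells (50000) were placed under the skin of the flank of C57BL/6-Ly5.1 mice aged 6 to 12 weeks, and each array holds RNA from 1 tumor at day 18, so all cells of the tumor contribute to a signal. There were 4 groups of 4 tumors. Control mice received vehicle and a control IgG. The CD40 group received vehicle and CD40 mIgG1, a chimeric agonist antibody against CD40. The MEKi group received 30 mg/kg of the MEK inhibitor GDC-0623 daily with the control IgG, and the MEKi+CD40 group received both agents. Antibodies were given on treatment days 3, 5 and 7 and again 1 day before analysis. All groups carried the same tumor line in the same host strain, and every treatment arm is measured in this single transplanted model.

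TGF-beta ligands are secreted in a latent form, bound to a propeptide and often to latent TGF-beta binding proteins, and are released by integrins or proteases. The active ligand brings together the type II receptor, encoded by Tgfbr2, and the type I receptor, encoded by Tgfbr1, which phosphorylates Smad2 and Smad3. These enter the nucleus with Smad4 and regulate target genes. Activins, dimers of inhibin beta chains such as that encoded by Inhba, use related receptors and the same SMAD proteins. Smad7 is induced by the signal and blocks the type I receptor. In tumors the pathway is known for its action on fibroblasts and matrix and for restraint of T cells.

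Values are log2 signals of the brightest probe set of each gene, and differences are given in log2 units with their SE. Signals of different genes cannot be ranked against each other on arrays, because each probe set binds with its own strength. The tissue in the samples differed between tumors. Skeletal muscle transcripts were abundant in CD40 tumor 3 and in MEKi+CD40 tumors 1 and 3, where the mean of 12 muscle genes lay 3.20, 7.38 and 4.58 above the control mean. A score of 10 fibroblast genes lay 1.79 to 3.49 above the control mean in these tumors and in MEKi tumor 3, whereas the other 12 tumors had scores of -0.68 to 0.46. Some muscle transcripts were also raised in MEKi tumor 2, where the muscle score was 0.99. Myh1 was 7.38 there and 3.05 to 3.35 in the controls. MEKi tumor 2 was kept in the fits without the tumors with muscle transcripts. In MEKi+CD40 tumor 1 the 3′ signal exceeded the 5′ signal by 0.38 in the Gapdh control probe sets (at most 0.08 in the other tumors) and by 0.91 in those of Actb (at most 0.44). Melanocyte genes such as Tyr and Dct were abundant in every tumor, with scores within -0.16 to 0.15 of the control mean. A lower signal in whole tumor cannot separate fewer cells of a type from less RNA per cell.

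No member gene passed an adjusted p of 0.05 by its brightest probe set in any of the 6 comparisons (limma, Benjamini-Hochberg over 45037 probe sets). Of the 23 probe sets, 1 passed, in a single comparison. That probe set belongs to Tgfbi and was higher in CD40 than in MEKi tumors. Over all probe sets, the share that passed was 0.0% for CD40 against control, 0.0% for MEKi against control, 0.00888% for MEKi+CD40 against control, 1.15% for MEKi+CD40 against MEKi, 4.74% for MEKi+CD40 against CD40 and 0.893% for CD40 against MEKi. The single member probe set thus stood beside 402 of 45037 in its comparison. At an unadjusted p under 0.05, the member genes numbered 2, 1, 2, 2, 2 and 1 of 9 in the same order of comparisons, and the probe sets 9, 5, 2, 5, 5 and 7 of 23. Over all probe sets the share at that level was 8.56%, 6.91%, 21.2%, 20.3%, 21.3% and 13.9%, so that 2 of 23 in MEKi+CD40 against control lay below the share of the array. The interaction of the agents, fitted on all 16 tumors, passed for no member and for 0.0% of probe sets, and only Tgfb2 had an unadjusted p under 0.05 among the 9 brightest probe sets (0.0467), beside 14.3% of all probe sets.

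**Figure D1:**
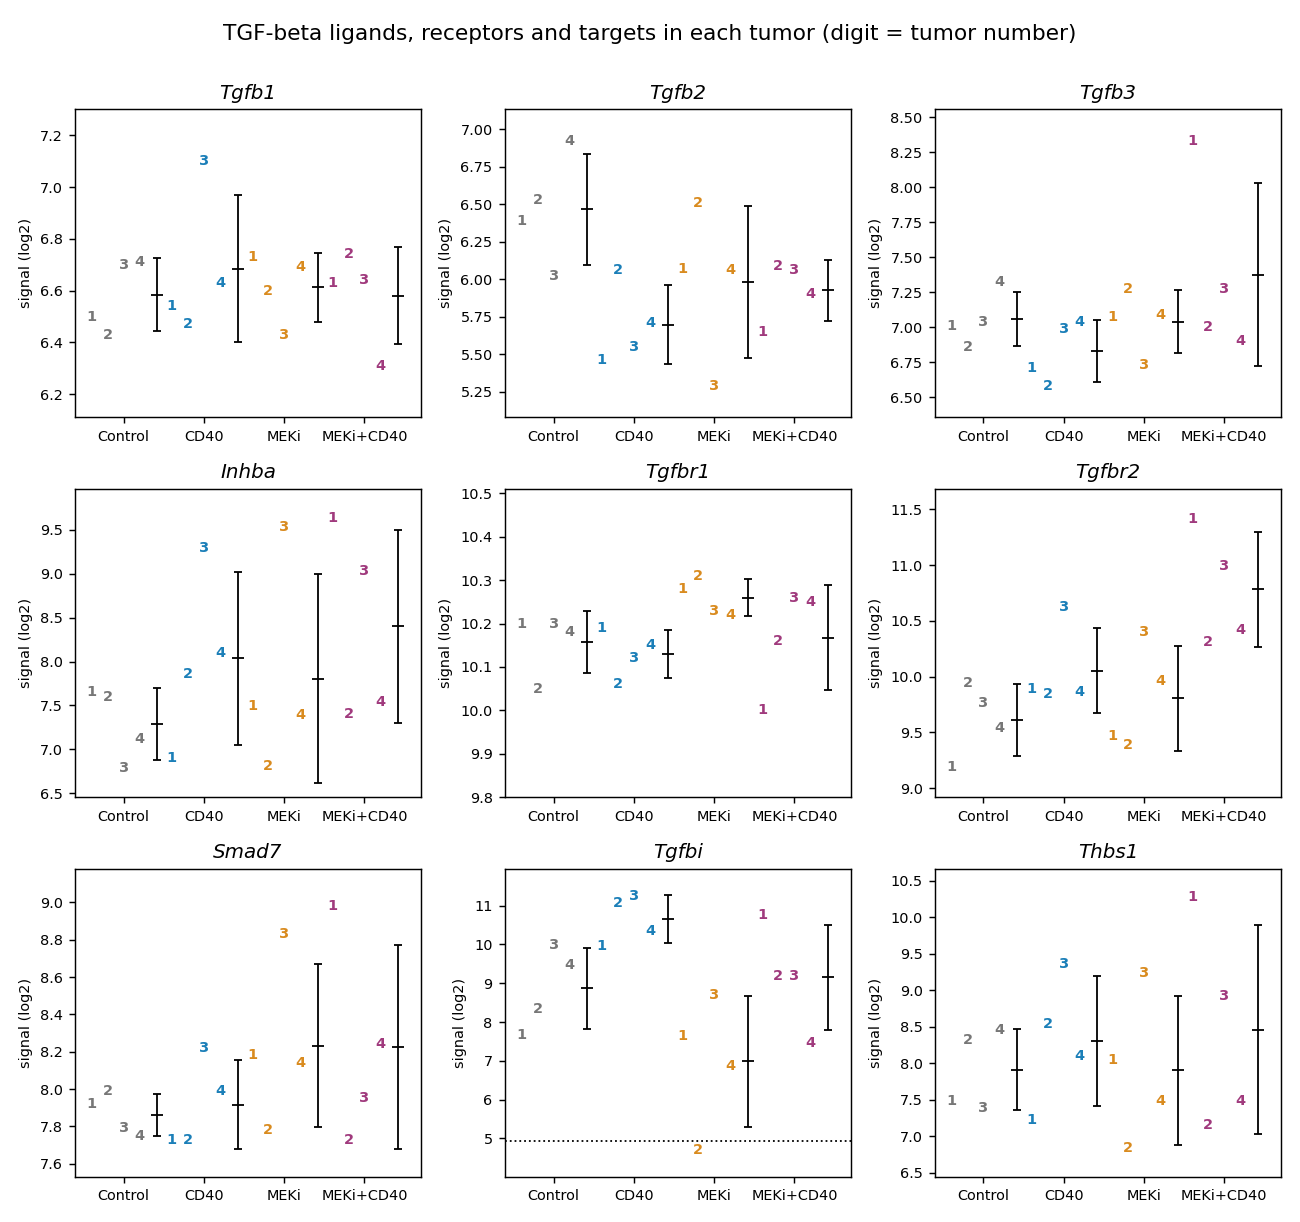
Signal in log2 units of the brightest probe set of each of the 9 genes, with a digit for each of the 4 tumors of a group and the group mean with its SD to the right. The dotted line in the Tgfbi panel is the background level of 4.94, and vertical scales differ between panels. Tgfbi covered the widest range, from 4.71 to 11.25, while Tgfbr1 stayed between 10.00 and 10.31.

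The upstream sequences of the genes whose differences were largest against their spread are shown first, to show whether letters bound by pathway factors stand close to their starts. The promoter table of RefSeq (build GRCm38.p6) held 7 promoters for 6 of the 9 members. Each sequence gives the 250 bases before the transcription start, 5′ to 3′ on the strand of the gene. Capitals mark CAGAC, the core letters bound by Smad3 and Smad4, read on both strands (GTCTG on the other), and the letters GAAA followed, after 2 bases of any kind, by GAAA again, a repeat bound by interferon regulatory factors. The 2 motifs did not overlap in these windows. Tgfbi lies on the plus strand with the window at chr13:56609336-56609585, Tgfbr2 on the minus strand at chr9:116175364-116175613 and Tgfb2 on the minus strand at chr1:186705990-186706239.
Tgfbi: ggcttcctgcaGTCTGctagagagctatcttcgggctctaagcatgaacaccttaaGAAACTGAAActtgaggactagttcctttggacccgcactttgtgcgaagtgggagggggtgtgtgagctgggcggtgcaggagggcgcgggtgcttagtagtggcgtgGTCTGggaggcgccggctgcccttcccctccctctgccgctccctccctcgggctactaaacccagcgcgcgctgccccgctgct
Tgfbr2: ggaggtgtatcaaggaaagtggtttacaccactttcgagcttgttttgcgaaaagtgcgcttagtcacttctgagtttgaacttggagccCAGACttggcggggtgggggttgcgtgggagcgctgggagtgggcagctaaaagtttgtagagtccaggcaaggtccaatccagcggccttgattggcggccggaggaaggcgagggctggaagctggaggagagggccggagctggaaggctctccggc
Tgfb2: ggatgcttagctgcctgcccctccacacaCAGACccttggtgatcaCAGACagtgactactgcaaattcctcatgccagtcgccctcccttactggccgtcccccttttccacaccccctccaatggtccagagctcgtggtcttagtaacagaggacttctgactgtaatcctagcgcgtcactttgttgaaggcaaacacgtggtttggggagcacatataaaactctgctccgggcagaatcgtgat

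CAGAC, on either strand, occurred at 2 places in the windows of Tgfbi and Tgfb2 and at 1 in that of Tgfbr2. The windows of Tgfb1 and Inhba, not printed here, held 0. Of the 2 Tgfbr1 promoters, also not printed, the first held 0 and the second 1. CAGAC occurred in 42.2% of the 32851 promoters of the table at this length. Of the 7 member promoters, only that of Tgfbi held the GAAA repeat, starting 194 bases before the transcription start. Of all promoters, 2.98% held it. A match describes the letters and not the binding of a factor.

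Of the ligands, Tgfb1, the isoform made by most immune cells, lay in a narrow band. Its signal was 6.50, 6.43, 6.70 and 6.71 in the control tumors and 6.54, 6.47, 7.10 and 6.63 in the CD40 tumors. In the MEKi tumors it was 6.73, 6.60, 6.43 and 6.69, and in the MEKi+CD40 tumors 6.63, 6.74, 6.64 and 6.31. All groups overlapped, and CD40 tumor 3 was the highest of the 16. The difference from control was 0.10 ± 0.14 (SE, n = 4) with CD40, 0.03 ± 0.10 with MEKi and -0.01 ± 0.12 with MEKi+CD40. The 95% interval of the last ran from -0.27 to 0.26.

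Tgfb2, a second isoform of the ligand, had its highest group mean in the controls. Its signal was 6.39, 6.53, 6.02 and 6.92 in the control tumors, and 5.46, 6.06, 5.55 and 5.71 in the CD40 tumors. It was 6.07, 6.51, 5.29 and 6.06 in the MEKi tumors and 5.65, 6.09, 6.06 and 5.90 in the MEKi+CD40 tumors. Control tumor 3 lay just below the highest CD40 tumor, and the other 3 control tumors lay above every CD40 and MEKi+CD40 tumor. The difference from control was -0.77 ± 0.19 with CD40 (adjusted p = 0.472 by limma), -0.48 ± 0.26 with MEKi (adjusted p = 0.757) and -0.54 ± 0.19 with MEKi+CD40 (adjusted p = 0.146). The interaction was 0.71 ± 0.33 (adjusted p = 0.339). The other 3 probe sets of Tgfb2 gave differences of -0.78 ± 0.17, -0.73 ± 0.21 and -0.32 ± 0.12 in CD40 against control. For the first and second of these, all 4 CD40 tumors lay below all 4 controls. Against control, MEKi gave -0.12 and -0.01 by the same probe sets, and MEKi+CD40 gave -0.26 ± 0.25 and -0.24 ± 0.26 (unadjusted p = 0.328 and 0.371 by limma). The lower values with MEKi and with MEKi+CD40 by the brightest probe set were thus smaller or near 0 by these, while those with CD40 were alike. The fourth lay under background, with a mean of 4.28.

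The Tgfb3 values were led by a single tumor. Its signal was 8.33, 7.00, 7.27 and 6.90 in the MEKi+CD40 tumors and lay between 6.58 and 7.32 in the other 12. MEKi+CD40 tumor 1, the highest, was also the tumor with the most muscle transcripts. The difference of MEKi+CD40 from control was 0.32 ± 0.29 with all tumors and -0.11 ± 0.14 without the tumors with muscle transcripts. The other 2 differences from control were -0.23 ± 0.13 with CD40 and -0.02 ± 0.13 with MEKi.

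Inhba encodes the beta A chain of activin A and had the widest range among the ligands. Its signal was 7.65, 7.60, 6.79 and 7.12 in the control tumors and 6.90, 7.86, 9.29 and 8.10 in the CD40 tumors. It was 7.49, 6.81, 9.53 and 7.39 in the MEKi tumors and 9.63, 7.40, 9.03 and 7.54 in the MEKi+CD40 tumors. The highest 4 tumors, at 9.03 to 9.63, came from 3 treated groups, and the other 12 lay between 6.79 and 8.10. They were the 4 tumors with high fibroblast scores. The differences from control were 0.75 ± 0.43 with CD40, 0.52 ± 0.51 with MEKi and 1.11 ± 0.50 with MEKi+CD40 (adjusted p = 0.249 by limma). Each depended on tumors with high fibroblast scores. Without CD40 tumor 3 the first was 0.33 ± 0.30, and without MEKi tumor 3 the second was -0.06 ± 0.24. The third was 0.70 ± 0.39 without MEKi+CD40 tumor 1 and 0.18 ± 0.24 without MEKi+CD40 tumors 1 and 3. A second Inhba probe set lay under background, with a mean of 4.02.

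The type I receptor Tgfbr1 was the steadiest member. Its signal was 10.20, 10.05, 10.20 and 10.18 in the control tumors, 10.19, 10.06, 10.12 and 10.15 in the CD40 tumors, 10.28, 10.31, 10.23 and 10.22 in the MEKi tumors and 10.00, 10.16, 10.26 and 10.25 in the MEKi+CD40 tumors. All 4 MEKi tumors lay above all 4 control and all 4 CD40 tumors, by a small margin. The difference was 0.10 ± 0.07 for MEKi against control (adjusted p = 0.801 by limma) and -0.13 ± 0.07 for CD40 against MEKi (adjusted p = 0.418). The other 2 Tgfbr1 probe sets lay under background, with means of 4.05 and 3.98.

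The type II receptor Tgfbr2, which binds the ligand first, was highest in the MEKi+CD40 tumors. Its signal was 9.19, 9.94, 9.76 and 9.54 in the control tumors, 9.89, 9.84, 10.62 and 9.86 in the CD40 tumors and 9.47, 9.39, 10.40 and 9.96 in the MEKi tumors. In the MEKi+CD40 tumors it was 11.41, 10.31, 10.99 and 10.42. All 4 MEKi+CD40 tumors lay above all 4 controls (exact permutation p = 0.0286, two-sided, the smallest that 4 against 4 allows), while CD40 tumor 3 and MEKi tumor 3 lay within their range. The difference from control was 1.18 ± 0.26, a 2.26-fold higher signal (95% interval 0.57 to 1.78, adjusted p = 0.0563 by limma). It was 0.98 ± 0.30 against MEKi (adjusted p = 0.114) and 0.73 ± 0.28 against CD40 (adjusted p = 0.173). The CD40 tumors differed from control by 0.45 ± 0.21 and the MEKi tumors by 0.20 ± 0.24. In descending order of group means, MEKi+CD40 (10.78), CD40 (10.05), MEKi (9.80) and control (9.61), no pair of neighbours passed the test.

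The Tgfbr2 difference from control lay close to the threshold, and settings moved it to either side. It passed with all 16 tumors in 1 fit (adjusted p = 0.0156), among probe sets above background (0.0433), with 1 probe set per gene (0.0443) and with array weights (0.0347). Leaving out 1 tumor gave differences of 0.97 to 1.33 and adjusted p-values of 0.0378 to 0.169, the lowest without MEKi+CD40 tumor 2. Without both MEKi+CD40 tumors with muscle transcripts it was 0.76 ± 0.20 (adjusted p = 0.143). Against CD40, leaving out the muscle tumors of both groups gave 0.50 ± 0.10 (adjusted p = 0.0468). A second Tgfbr2 probe set above background, with a mean of 6.03, did not follow the first across the tumors (r = 0.16, n = 16) and gave 0.16 ± 0.09 in MEKi+CD40 against control. The result for Tgfbr2 therefore rests on 1 of its probe sets. The remaining probe set lay under background at a mean of 3.40.

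**Figure D2:**
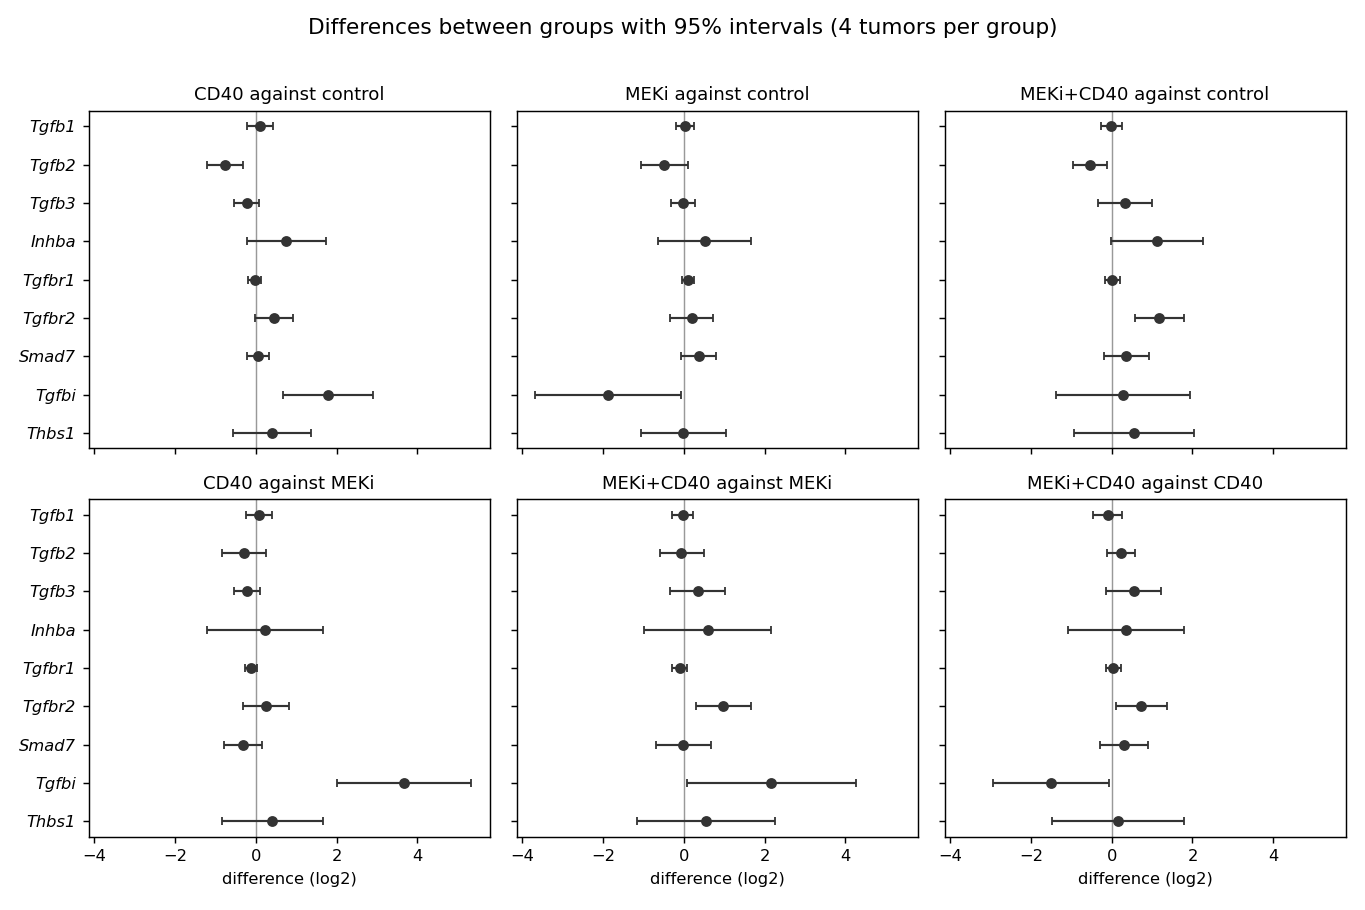
Difference in log2 units for each of the 9 genes in each of the 6 pairs of groups, as points with 95% intervals from limma (4 tumors per group). The interval of Tgfbr2 lies above 0 in the 3 comparisons with MEKi+CD40, that of Tgfbi lies farthest from 0 in CD40 against MEKi, and that of Tgfbr1 is the narrowest in each of the 6.

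Smad7, the inhibitor that the pathway itself induces, was close in most tumors. Its signal was 7.92, 7.99, 7.79 and 7.75 in the control tumors and 7.73, 7.73, 8.22 and 7.99 in the CD40 tumors. It was 8.18, 7.78, 8.83 and 8.14 in the MEKi tumors and 8.98, 7.73, 7.95 and 8.24 in the MEKi+CD40 tumors. MEKi tumor 3 and MEKi+CD40 tumor 1 were the highest, and no group separated from another. The differences from control were 0.05 ± 0.12 with CD40, 0.37 ± 0.19 with MEKi and 0.36 ± 0.24 with MEKi+CD40, with adjusted p-values from 0.432 to 0.935 (limma). The MEKi difference was 0.17 ± 0.12 without MEKi tumor 3, and the MEKi+CD40 difference was 0.11 ± 0.13 without MEKi+CD40 tumor 1. A second probe set of Smad7 followed the first over the 16 tumors (r = 0.98).

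Thbs1 encodes thrombospondin 1, a secreted protein that is both a target of TGF-beta and an activator of its latent form. Its signal was 7.48, 8.32, 7.39 and 8.46 in the control tumors, 7.22, 8.54, 9.36 and 8.10 in the CD40 tumors, 8.05, 6.84, 9.23 and 7.49 in the MEKi tumors and 10.27, 7.16, 8.92 and 7.48 in the MEKi+CD40 tumors. The highest 4 tumors, at 8.92 to 10.27, were again those with high fibroblast scores, and the other 12 lay between 6.84 and 8.54. The differences from control were 0.39 ± 0.43, -0.01 ± 0.47 and 0.55 ± 0.65 with CD40, MEKi and MEKi+CD40. Without CD40 tumor 3 the first was 0.04 ± 0.35, and without MEKi tumor 3 the second was -0.45 ± 0.34. The last was -0.06 ± 0.44 without MEKi+CD40 tumor 1 and -0.59 ± 0.32 without both MEKi+CD40 tumors with muscle transcripts.

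Tgfbi encodes a secreted matrix protein that was found through its induction by TGF-beta, and it varied most among the members. Its signal was 7.67, 8.34, 9.99 and 9.46 in the control tumors and 9.95, 11.08, 11.25 and 10.34 in the CD40 tumors. It was 7.65, 4.71, 8.70 and 6.87 in the MEKi tumors and 10.77, 9.19, 9.19 and 7.46 in the MEKi+CD40 tumors. Every CD40 tumor lay above every MEKi tumor, and only MEKi tumor 2 lay under the background level. The difference between CD40 and MEKi was 3.67 ± 0.74 (95% interval 2.00 to 5.34, adjusted p = 0.0641 by limma), a 12.8-fold higher signal with CD40. By the 3 other probe sets it was 3.55 ± 0.69 (adjusted p = 0.0582), 3.35 ± 0.69 (adjusted p = 0.0707) and 3.10 ± 0.54 (adjusted p = 0.038). The last is the probe set that passed, and all 4 probe sets separated the groups without overlap (r with the brightest from 0.98 to 1.00).

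Leaving out any tumor other than MEKi tumor 3 ended the call of that Tgfbi probe set, with adjusted p-values of 0.0598 to 0.14, and without MEKi tumor 3 it was 0.0195. The difference itself stayed between 2.68 and 3.62. By the brightest probe set the difference was 4.25 without MEKi tumor 3 (adjusted p = 0.0414) and 2.92 without MEKi tumor 2, the tumor under background.

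Against control, Tgfbi was 1.79 ± 0.50 with CD40 (unadjusted p = 0.00548, adjusted p = 0.506 by limma), -1.88 ± 0.80 with MEKi (adjusted p = 0.71) and 0.29 ± 0.72 with MEKi+CD40 (adjusted p = 0.857). The MEKi+CD40 tumors differed by 2.17 ± 0.92 from MEKi (adjusted p = 0.23) and by -1.50 ± 0.63 from CD40 (adjusted p = 0.217). Without MEKi+CD40 tumor 1 the latter was -2.04 (adjusted p = 0.0447). In the order CD40 (10.66), MEKi+CD40 (9.15), control (8.86) and MEKi (6.98), no neighbours passed the test. The interaction was 0.38 ± 1.12, and its 95% interval of -2.02 to 2.78 leaves room for a sizeable departure from additivity in either direction.

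Over the 16 tumors, Tgfbi ran with the markers of leukocytes. The score of 8 leukocyte genes, among them Ptprc (CD45), Lcp1 and Laptm5, gave r = 0.97 and rho = 0.99 with Tgfbi (permutation p = 1e-05 for each, the smallest that 100000 permutations can give, adjusted p = 0.00036 over 72 relations of 9 genes with 8 marker lists). Within groups, after each group mean was removed, r was 0.94, and without the 2 tumors farthest from the median score it was 0.98 (n = 14). The score of 10 macrophage genes, among them Csf1r, Cd68 and the C1q chains, gave r = 0.95 and rho = 0.94. The score of 8 T cell genes also ran with Tgfbi (r = 0.82 and rho = 0.89, permutation test, adjusted p = 0.00257 and 0.00036). Its r within groups was 0.61. All 10 macrophage genes were higher in CD40 than in MEKi tumors, with a median difference of 2.79, and 2 of them passed the test. All 8 leukocyte genes were higher too, with a median of 2.83, and 3 passed. Over the array, 0.893% of probe sets passed in this comparison, and the median difference over all genes was -0.045. Leukocyte scores ran from 0.52 to 2.48 in CD40 tumors and from -2.51 to -0.38 in MEKi tumors, relative to the control mean. The part of leukocyte content in the Tgfbi difference was not tested.

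**Figure D3:**
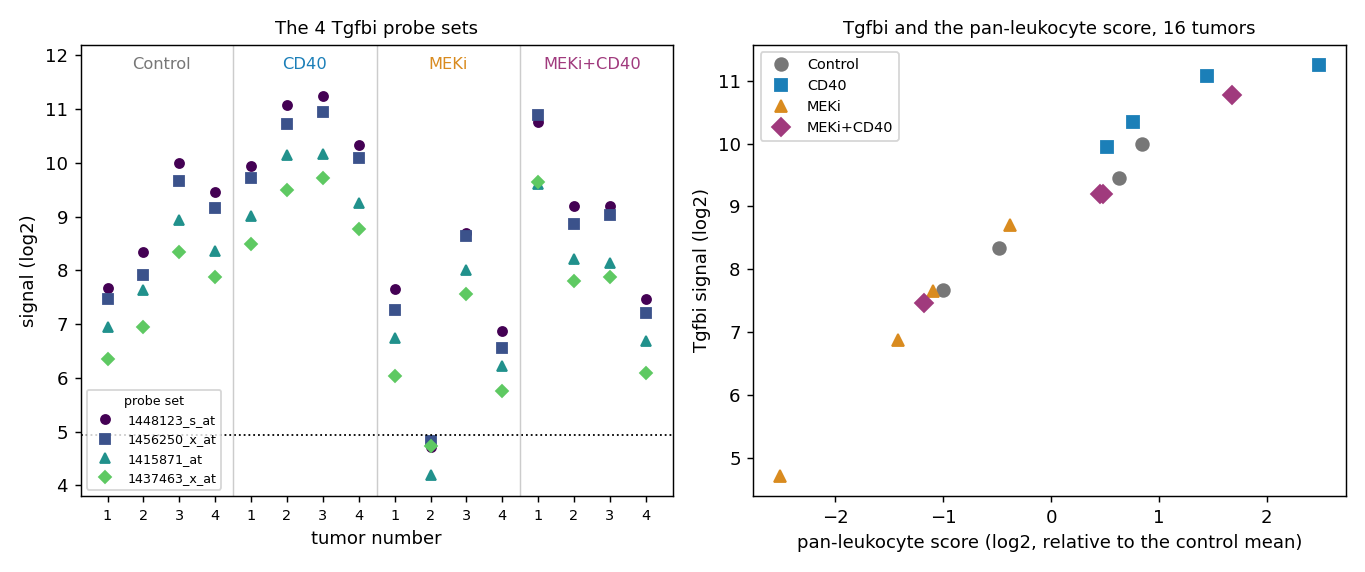
Left, signal in log2 units of the 4 Tgfbi probe sets in each of the 16 tumors, with the background level of 4.94 dotted. Right, the brightest Tgfbi probe set against the pan-leukocyte score, the mean log2 signal of 8 genes relative to the control mean, for which r was 0.97. The probe sets run together, and the CD40 tumors sit at the upper right while MEKi tumors sit to the lower left.

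Inhba and Thbs1 were instead highest in the tumors rich in fibroblast transcripts, and the values of Smad7 and Tgfbr2 in these overlapped those of the other tumors. All 10 fibroblast genes, among them Pdgfra, Pdgfrb, Col1a1 and Lum, were above background. In CD40 tumor 3, MEKi tumor 3, and MEKi+CD40 tumors 1 and 3, the 4 tumors with high scores, the median was 9.41 for Inhba, 9.30 for Thbs1, 8.52 for Smad7 and 10.80 for Tgfbr2. In the 12 with low scores the medians were 7.44, 7.48, 7.86 and 9.85. Smad7 ranged from 7.95 to 8.98 in the 4 and from 7.73 to 8.24 in the 12, and only MEKi tumor 3 and MEKi+CD40 tumor 1 lay above the latter range. Tgfbr2 ranged from 10.40 to 11.41 in the 4 and from 9.19 to 10.42 in the 12. These tumors form a cluster apart, so no pooled correlation is given. Within the 12 others, r with the fibroblast score was 0.11 for Inhba, 0.10 for Thbs1, 0.62 for Smad7 and -0.01 for Tgfbr2. In the high cluster, 3 of the 4 tumors also held muscle transcripts, and how much of either tissue was in the excised piece was not tested.

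Thbs1 also ran with the score of 6 platelet and megakaryocyte genes (r = 0.88 and rho = 0.87 over 16 tumors, permutation p = 3e-05 and 2e-05, adjusted p = 0.00072 and 0.00036 over the 72 relations). Its r was 0.88 within groups, 0.83 without the 2 tumors farthest from the median score (n = 14) and 0.75 among the 12 tumors with low fibroblast scores. The spread of that score lay mostly in Pf4 (6.82 to 11.34) and Ppbp (4.33 to 7.92). The other 4 genes varied less than these, and Itga2b (6.79) and Gp9 (5.24) were at their lowest of the 16 in CD40 tumor 3, where Thbs1 was 9.36. Inhba had a similar relation with the score (r = 0.83 and rho = 0.79, permutation test, adjusted p = 0.00257 and 0.00446). Its r was 0.65 without the 2 farthest tumors and 0.44 among the 12. Thbs1 also ran with the macrophage score (r = 0.70 and rho = 0.65, permutation test, adjusted p = 0.0164 and 0.0537). The r of Thbs1 with that score was 0.81 within groups, 0.63 without the 2 farthest tumors and 0.50 among the 12. The part of platelets or macrophages in the Thbs1 signal was not tested. Tgfbr1 went the opposite way to the leukocyte score (r = -0.68 and rho = -0.73, adjusted p = 0.0206 and 0.0205, r = -0.49 within groups and -0.61 without the 2 farthest tumors).

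**Figure D4:**
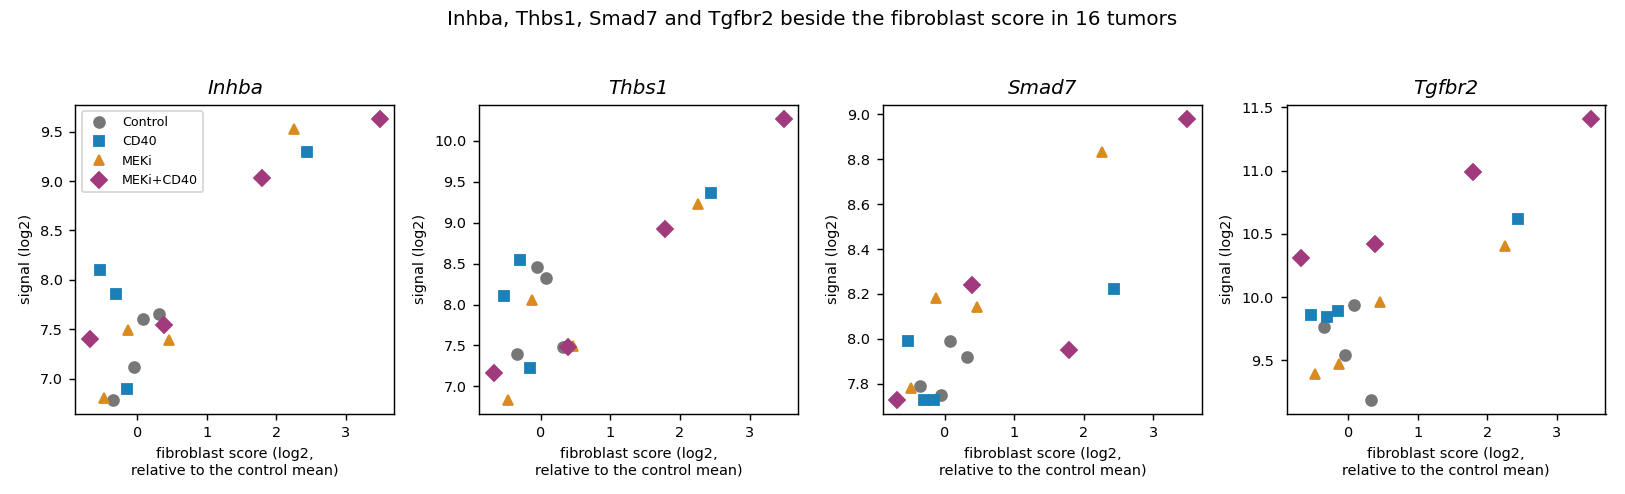
Signal in log2 units of Inhba, Thbs1, Smad7 and Tgfbr2 against the fibroblast score, the mean log2 signal of 10 genes relative to the control mean, with 1 point per tumor. The 4 tumors at scores of 1.79 to 3.49 carry the highest Inhba and Thbs1 signals, and the MEKi+CD40 tumors lie above the others in Tgfbr2 at low scores as well.

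Across the 9 members, the pair most alike over the tumors was Inhba and Thbs1 (rho = 0.82, r = 0.89, n = 16), and the pair most opposed was Tgfbr1 and Tgfbi (rho = -0.72, r = -0.68). Inhba and Thbs1 were both highest in the 4 tumors with high fibroblast scores, and the values for this pair include that cluster. Values of both pairs pool the 4 groups and describe the tumors only. Among 12698 genes above background, those ranked closest to each member by Spearman rho were found in the same way. For Tgfbi they were Atp8b4, Coro1a and Fcgr1 (rho = 0.99 each), of which Coro1a and Fcgr1 belong to the leukocyte and macrophage lists. For Tgfbr2 they were Spsb1, Zbtb4 and Fkbp7 (rho = 0.97, 0.96 and 0.95). For Thbs1 they were S100a6, Vcan and Pcdhgc4 (0.92, 0.92 and 0.90), for Smad7 Il1r1, Nectin2 and Slc12a4 (0.92, 0.91 and 0.90), and for Inhba Papss2, Csf3 and Col27a1 (0.88, 0.86 and 0.86). For Tgfbr1 they were Lrp6, Tmc8 and Cdkn1b (0.92, 0.90 and 0.89). The closest to the ligands were Ppp6r1, Rsad1 and Tcf7l2 for Tgfb1 (0.82, 0.78 and 0.77), Immp1l, Zfp189 and Gjc3 for Tgfb2 (0.89, 0.86 and 0.86) and Deaf1, Sall2 and Plekha7 for Tgfb3 (0.89, 0.88 and 0.88).

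Groups that did not overlap were counted for the 23 probe sets beside all 45037. In CD40 against control 5 of 23 separated, against 4.66% of all probe sets, namely 3 of Tgfbi (higher) and 2 of Tgfb2 (lower). In CD40 against MEKi 6 separated, against 8.98%, all 4 of Tgfbi with 1 each of Tgfb2 and Tgfbr1. MEKi against control gave 1 (Tgfbr1) against 4.03%, MEKi+CD40 against control 1 (Tgfbr2) against 14.0%, MEKi+CD40 against MEKi 0 against 13.0%, and MEKi+CD40 against CD40 2 against 14.3%. The last 2 were a Tgfb2 probe set that was higher and a Tgfbr1 probe set under background. Probe sets of a gene share its transcripts, so the counts stand for 3 genes in CD40 against MEKi, for 2 in CD40 against control and in MEKi+CD40 against CD40, for 1 in MEKi and in MEKi+CD40 against control, and for 0 in MEKi+CD40 against MEKi.

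Beyond the 9 members, 63 of 66 other genes of the pathway were measured under a single symbol. In CD40 and in MEKi tumors against control, none passed the test (limma), with a median difference of 0.09 in each, and none passed in MEKi+CD40 tumors against control, with a median of 0.50, beside 0.028 over all genes. At an unadjusted p under 0.05 the counts of the 63 were 10, 4 and 22, or 15.9%, 6.35% and 34.9%, beside 8.56%, 6.91% and 21.2% of all probe sets. The latter include several probe sets per gene and those under background, whereas the 63 genes have 1 probe set each. Fitted with 1 probe set per gene, 1820, 1464 and 4617 of 18193 had such a p. Among probe sets above background, 2832, 2031 and 7871 of 27146 did. None passed in MEKi+CD40 or CD40 against MEKi. The unadjusted counts there were 9 and 9, or 14.3% each, beside 20.3% and 13.9% of all probe sets. With 1 probe set per gene the array counts were 4454 and 2892 of 18193. In MEKi+CD40 against CD40, 1 of the 63 passed, beside 4.74% of all probe sets. At an unadjusted p under 0.05 the count there was 10, or 15.9%, beside 21.3% of all probe sets. With 1 probe set per gene the array count was 4641 of 18193. The gene that passed was Ltbp3, which encodes a latent TGF-beta binding protein. Its signal was 10.48, 10.39, 10.59 and 10.70 in the CD40 tumors and 11.01, 10.87, 11.23 and 11.16 in the MEKi+CD40 tumors, a difference of 0.53 ± 0.11 (adjusted p = 0.037). All 4 MEKi+CD40 tumors were above all 4 CD40 tumors. The call of Ltbp3 was lost in 9 of 18 alternatives, among them those without any single CD40 tumor (0.064 to 0.119), without MEKi+CD40 tumor 3 (0.0958) or 4 (0.0847), and without the tumors with muscle transcripts (0.109), while the difference stayed between 0.47 and 0.59.

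The SMAD genes that carry the signal did not pass the test in MEKi+CD40 tumors, and their differences had opposite signs. Smad3 signal was 9.96, 9.81, 9.96 and 9.69 in the MEKi+CD40 tumors, above all 12 others, which ran from 8.49 to 9.67. Its difference was 0.77 ± 0.10 from control (adjusted p = 0.0517 by limma), 0.86 ± 0.17 from MEKi (adjusted p = 0.0517) and 0.37 ± 0.11 from CD40 (adjusted p = 0.107). Without the tumors with muscle transcripts the first was 0.66 ± 0.12 (adjusted p = 0.138, equal to the lowest of any probe set in that fit). Its adjusted p lay between 0.0324 and 0.165 when single tumors were left out. The difference from control passed without control tumor 2 (0.0324), without MEKi+CD40 tumor 1 (0.0482) and without MEKi+CD40 tumor 2 (0.0346). Of 18 alternatives in all, it passed in 8 (adjusted p of 0.00668 to 0.175 by limma). The difference from MEKi passed in 5 of 18 (0.00605 to 0.187), and that from CD40 in none. Smad2 signal was 8.30, 8.72, 8.33 and 8.80 in the MEKi+CD40 tumors and 8.97 to 9.04 in the controls, a difference of -0.47 ± 0.13 (adjusted p = 0.079).

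Against control, other genes with the smallest p in their lists in MEKi+CD40 tumors were Acvr1b, a type I activin receptor (0.68 ± 0.15, adjusted p = 0.0548 by limma), Fstl3, an activin-binding protein (1.12 ± 0.26, adjusted p = 0.0599), and Furin, a protease that cleaves the ligand precursors (0.69 ± 0.17, adjusted p = 0.0658). In 18 alternatives each, Acvr1b passed in 5, Fstl3 in 5 and Furin in 4. Their lowest differences there were 0.42, 0.74 and 0.44. Acvr1, from the same list as Acvr1b, was lower (-0.33 ± 0.10, adjusted p = 0.107 by limma), with all 4 MEKi+CD40 tumors below all 4 controls. Of the 8 genes of that list, 5 were higher and 3 lower. Grem1, an antagonist of related ligands, differed by 1.64 ± 0.46 (adjusted p = 0.0888), and Vegfa, a target gene, by 0.50 ± 0.15 (adjusted p = 0.0987). All 11 extracellular binding proteins and antagonists had positive differences, with a median of 1.15 and none called. Their score, relative to the control mean, was 2.48, 1.51 and 0.52 in MEKi+CD40 tumors 1, 3 and 4 and at the control level in tumor 2, and 1.67 in CD40 tumor 3 and 1.41 in MEKi tumor 3, so the 4 highest values were in the tumors with high fibroblast scores. The list includes Dcn, which is also a fibroblast marker. Co-receptors and related receptors had a median of 0.35, SMADs and intracellular regulators 0.24, latency and activation genes 0.60, the 2 other activin subunits 0.26, and further target genes 0.54. The target list shares Col1a1, Col1a2 and Col3a1 with the fibroblast list. The score of the target list was 1.77, -0.66, 0.48 and 0.08 in MEKi+CD40 tumors 1, 2, 3 and 4. That of the latency and activation genes was 1.87, 0.07, 0.70 and 0.29.

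**Figure D5:**
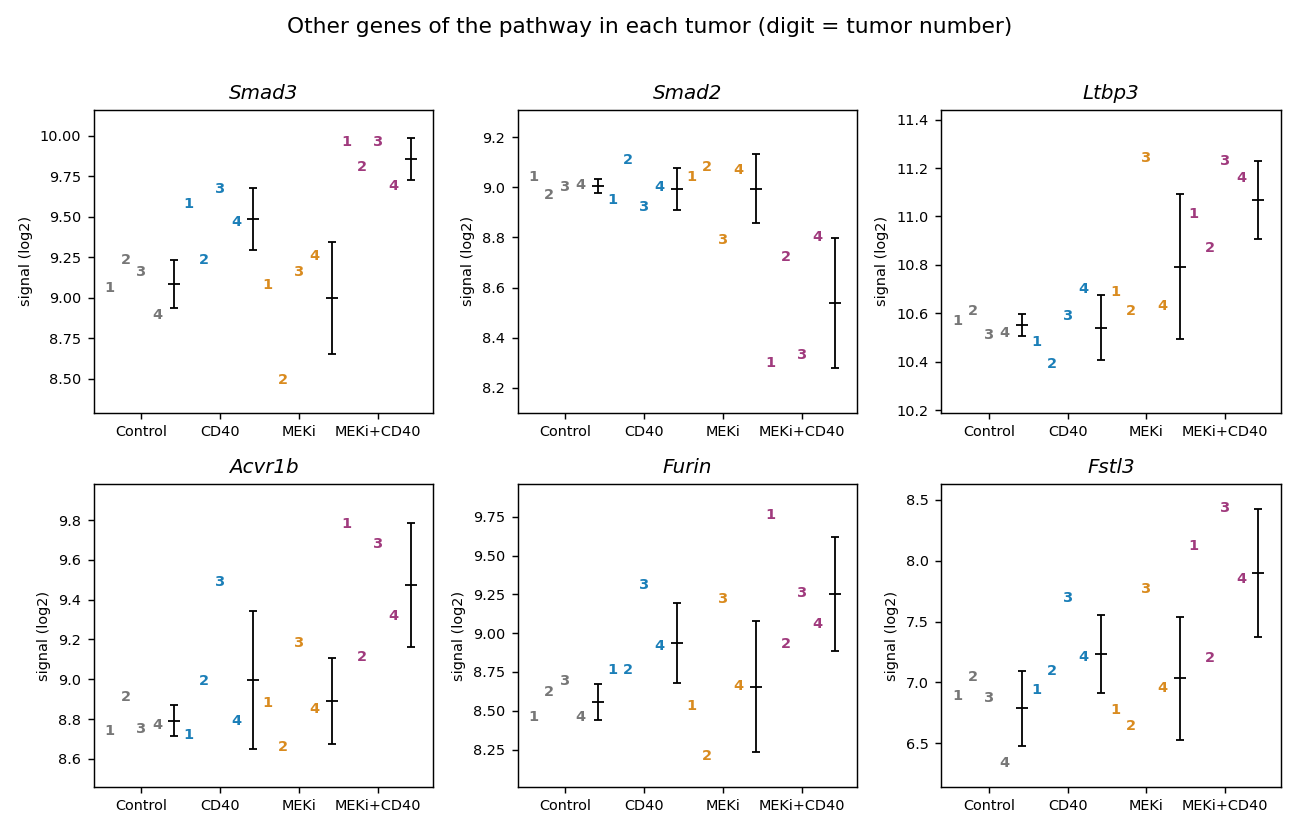
Signal in log2 units of 6 other genes of the pathway, with a digit for each of the 4 tumors of a group and the group mean with its SD. Smad3 in the MEKi+CD40 tumors (9.69 to 9.96) lies above every other tumor, Smad2 is lowest there in tumors 1 and 3, and CD40 tumor 3 and MEKi tumor 3 stand high within their groups for Acvr1b, Furin and Fstl3.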

How the data were processed

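The authors hybridised 200 ng of total RNA per tumor to Affymetrix mouse genome arrays and deposited log2 signals normalized with RMA (version not given in the sources used here). RMA equalises the distribution of signals between arrays, so changes shared by most transcripts are not visible. From the deposited log2 values of 16 arrays, 64 control probe sets were left out and 45037 tested. Annotation gave 34945 a single gene symbol, 932 several and 9160 none. Probe sets mapping to several genes were not used for members, and 3 of the 66 further pathway genes were not analysed here.

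Each pair of groups was fitted by limma 3.58.1 (R 4.3.3; lmFit, eBayes) on the 8 arrays of that pair, and the interaction on 16. A call means that the p, adjusted over all 45037 by Benjamini-Hochberg, was under 0.05. The median SE of a difference was 0.103 to 0.119 between 2 groups. The number of arrays limits the precision. Each sample is a separate tumor by its label, and p-values measure the spread between these tumors. The fits were tested on simulated data. A gene is represented by its brightest probe set over all arrays. A score is the mean log2 signal of a marker list. Lists covered the pathway (co-receptors, SMADs, latency, binding proteins, activin subunits, target genes) and cell types (fibroblast, macrophage, pan-leukocyte, T cell, regulatory T cell, platelet, endothelial, skeletal muscle, melanoma, keratinocyte, adipocyte). Against control, the median differences in MEKi+CD40 tumors were 1.02 for fibroblast, 0.54 for macrophage, 0.48 for pan-leukocyte, 0.20 for platelet, 2.94 for skeletal muscle, 0.05 for melanoma, 0.26 for T cell, 0.05 for regulatory T cell, 0.55 for endothelial, 0.14 for keratinocyte and 0.80 for adipocyte genes.

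Named genes are the members, pathway genes past the test or otherwise up to 2 per list by smallest p, markers that move with a member, and for each member the 3 genes of highest Spearman rho. Members and lists were chosen with earlier results of these data known. The alternatives changed the samples (a joint fit of all tumors, each tumor left out, the tumors with muscle transcripts left out), the model (replicate numbers as a block, array weights, a robust eBayes with a trend), the scaling (median centring, cyclic loess) or the features (those above background, 1 for each gene, a gene's probe sets averaged). A fit without the 4 tumors with high fibroblast scores was added after seeing the data. Tables and figures used Python 3.11.15, pandas 2.3.3, numpy 2.4.6, scipy 1.17.1 and matplotlib 3.10.9.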

Additional observations from a re-analysis of the deposited data

Results flagged for a closer look

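Among 36 sets of 4 tumors (9 genes in 4 groups), 2 held a tumor whose gap to its nearest neighbour exceeded the 95% limit of Dixon's test for 4 values, which chance alone gives in about 1 of 20 sets. Tgfbr2 in CD40 tumor 3 was 10.62, above the other CD40 tumors at 9.84 to 9.89. This tumor also carried muscle and high fibroblast scores (3.20 and 2.44). Tgfbr1 in control tumor 2 was 10.05, below the other controls at 10.18 to 10.20.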

How the results depend on the processing

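Counts of probe sets called across the array depended on the setting. In CD40 against control, 0 were called, 2 with array weights, 4 with a robust trend and 0 to 1 when each tumor was left out in turn. In MEKi against control, 0 were called, 2 with 1 probe set per gene, 2 with array weights, 2 after cyclic loess and 0 when any tumor was left out. In MEKi+CD40 against control, 4 were called, 1243 with 1 probe set per gene, 4904 with all 16 tumors in 1 fit, 3101 with array weights, 723 with a robust trend and 2042 above background. The count was 0 after cyclic loess, after median centring, with the replicate block, and without the tumors with muscle transcripts or with high fibroblast scores, and 0 to 2327 when each tumor was left out. In MEKi+CD40 against MEKi, 518 became 853, 4699, 2450 and 1623 with 1 probe set per gene, all tumors, array weights and the background filter. It became 0 under the same 5 settings, with a range of 0 to 1454 when each tumor was left out. In MEKi+CD40 against CD40, 2133 became 5309 with all tumors, 4395 with array weights, 0 with the replicate block and 0 to 3508 without single tumors. In CD40 against MEKi, 402 became 225 with a robust trend, 748 without the tumors with high fibroblast scores and 100 to 448 without single tumors. The interaction gave 0, 755 with array weights and 0 to 560 without single tumors. Same-numbered tumors did not deviate together (correlations of -0.517 to 0.473), so the numbers are not taken to pair them, and the replicate block left the called Tgfbi probe set at an adjusted p of 0.0435.

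Differences of Inhba and Tgfb3 turned sign. Inhba in MEKi against control was 0.52 and -0.06 without MEKi tumor 3, with 0.85 as the other end of the range. Tgfb3 in MEKi+CD40 against control was 0.32, but -0.11 without the tumors with muscle transcripts or with high fibroblast scores and -0.00083 without MEKi+CD40 tumor 1, with 0.48 as the other end of that range. Tgfb3 in MEKi+CD40 against MEKi was 0.34, but -0.09 and -0.19 under the same settings. The cause was not tested. Of the other alternative values of single genes, 1112 stayed on the same side of the threshold and either kept their sign or, where the difference was under its SE, crossed 0 with a shift of at most the SE. A further 49 newly passed, 18 no longer passed, and 10 differences under their SE crossed 0 with a larger shift. Probe sets close to background, with 39.7% of the array at or below it, limit what can be measured.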
